A study of Mus musculus with 18 samples.

Results

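The genes described here encode subunits of the receptors for GABA and glutamate. They were taken by symbol from 3 deposited gene tables (brain, retina and choroid of the mouse): every symbol that begins with Gabr, Gabbr, Gria, Grik, Grin, Grid or Grm and belongs to a subunit, with Grina left out. The rule found 43 of the 14068 genes listed in at least 1 table. For brain, 38 of them were listed among 12919 genes. For retina 39 were listed among 12369, and for choroid 13 among 11718. By role they were 12 subunits of the GABA-A receptor, 3 rho subunits, 2 GABA-B receptor genes, 4 AMPA, 5 kainate, 2 delta and 7 NMDA receptor subunits and 8 metabotropic glutamate receptors. All 3 tables listed 12 of them, among these Gabbr1, Gabra3, Gabra4, Gabrb1, Gria1, Gria3, Gria4, Grik1, Grik5 and Grin3b. Retina and brain alone shared 22, 4 were listed in brain alone (Gabra5, Gabra6, Grin2c and Grm3), 4 in retina alone (Gabrr1, Gabrr3, Grin2a and Grm6), and Gabrr2 was listed in choroid and retina.

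All animals were labelled Tie2-cre+; NuTRAP+. Tie2-cre is active in endothelium and also in the blood lineage, and NuTRAP, once recombined by Cre, puts a GFP tag on ribosomes through Rpl10a. Translating ribosome affinity purification (TRAP) with an antibody to GFP gave the positive fraction, and a share of the same cleared lysate, kept before the pull-down, gave the input. Positive and input libraries were made from brain, retina and choroid, 3 each (replicates 421, 953 and 960), so there were 18 libraries in 6 groups. Retina and choroid samples pooled 2 eyes, the choroid was scraped off together with the retinal pigment epithelium, and brain samples held 0.5 of a brain. The labels state no age or sex, and a pull-down from animals without the transgenes was not analysed here.

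GABA opens chloride channels of the GABA-A type, which are pentamers usually built from alpha, beta and gamma or delta subunits, and it also acts on the G protein-coupled GABA-B receptor. Glutamate opens AMPA, kainate and NMDA channels, which are tetramers, and acts more slowly through metabotropic receptors. In brain and retina these genes are known mainly from neurons, with some, such as Grm3, also well known from glia; they are not classical endothelial genes.

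The sequences upstream of 3 of the genes are shown because these genes mark the ends of the results: Gria2 was the only member called higher in a positive fraction, Grm6 had the highest level per length in the retina positive fraction, and Gabra6 was among the lowest fold changes in brain. Each line gives the 250 bases before the annotated start from RefSeq (GRCm38.p6), 5′ to 3′ on the strand of the gene, with CG pairs in capitals.
Gria2, chr3:80802836-80803085, minus strand: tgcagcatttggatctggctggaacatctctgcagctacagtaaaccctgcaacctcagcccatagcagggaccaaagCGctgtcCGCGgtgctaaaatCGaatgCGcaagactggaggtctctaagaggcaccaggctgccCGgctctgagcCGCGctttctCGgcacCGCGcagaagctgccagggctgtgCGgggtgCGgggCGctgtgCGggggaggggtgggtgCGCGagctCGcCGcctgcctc
Grm6, chr11:50850435-50850684, plus strand: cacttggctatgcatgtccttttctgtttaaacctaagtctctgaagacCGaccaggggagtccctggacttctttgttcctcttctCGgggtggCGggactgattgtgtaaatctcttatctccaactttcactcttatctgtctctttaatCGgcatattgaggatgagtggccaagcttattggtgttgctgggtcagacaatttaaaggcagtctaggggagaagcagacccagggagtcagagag
Gabra6, chr11:42321073-42321322, minus strand: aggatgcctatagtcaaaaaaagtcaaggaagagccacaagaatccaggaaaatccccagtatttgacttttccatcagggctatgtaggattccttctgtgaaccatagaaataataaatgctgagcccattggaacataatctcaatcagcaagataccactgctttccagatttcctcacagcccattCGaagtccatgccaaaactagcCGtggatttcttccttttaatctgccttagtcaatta
These stretches held 19 CG pairs for Gria2, 4 for Grm6 and 2 for Gabra6. Of the 43 members, 28 matched the promoter table, and their median was 9 CG pairs, against 6 over its 32851 starts. More CG pairs than that median stood before 20 of the 28 (71.4%), against 46.3% of all starts. On either strand, the letters TAATCC (the core bound by CRX and OTX factors) occurred before 2 of the 28, Gabra2 and Gabrr2, and before 6.25% of all starts. The letters TATAAA occurred before 3 of the 28 and before 12.4% of all starts. The letters TTCAGCACC, part of the RE1 element, stood before 1 of the 28, Grm2, and before 0.301% of all starts. These matches are descriptions of the letters.

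Levels are given as CPM (expected counts scaled to the listed total of the library, with TMM factors within a tissue), and a fold change is the log2 of positive over input with its standard error (SE). A gene is called where the edgeR quasi-likelihood test gave a Benjamini-Hochberg adjusted p under 0.05 over all genes of the fit. These p-values rest on the spread between libraries labelled as biological replicates. The main fits did not pair the positive and input libraries of a number, although both came from the same lysate. Fits with the replicate number as a block, which pair them, were run as an alternative. In bulk libraries, fewer cells of a type and less RNA per cell cannot be told apart. Summed counts ran from 18618427 to 28277853 in brain positive libraries and 9596740 to 32064355 in brain inputs, from 6260958 to 11071373 in retina positive libraries and 15243098 to 21521130 in retina inputs, and from 2649095 to 4587921 in choroid positive libraries and 8807306 to 14484068 in choroid inputs. A gene was listed where every library of at least 1 fraction reached 50 counts. In brain 37 members met this in both fractions and 1 in the positive fraction alone. In retina 26 met it in both and 13 in the inputs alone, and in choroid 2 (1 of them Grik5) met it in both and 11 in the inputs alone. Of all choroid genes that entered through the inputs alone 32.7% were called lower, against 14.8% of those that met it in both fractions. In retina the order was the other way, with 12.0% of the input-only genes and 14.3% of those that met it in both. The choroid counts below therefore describe the listed members and no more.

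Endothelial markers were higher in the positive fraction of each tissue (12 of 12 in brain, 11 of 12 in retina and 12 of 12 in choroid). So were markers of microglia (12 of 12 in brain, 10 of 10 listed in retina and 8 of 10 listed in choroid). Neuron markers were called lower for 11 of 14 listed genes in brain (median log2 fold change -0.74), 9 of 14 in retina (-0.57) and 3 of 11 in choroid (-0.69), where 2 were higher. With the replicate number as a block, 7 of the 11 in choroid were called lower. Their summed level was 5267 to 6892 CPM in brain positive libraries against 10035 to 12110 CPM in brain inputs, 3369 to 5130.5 CPM in retina positive libraries against 5993 to 6084 CPM in retina inputs, and 260.7 to 437 CPM in choroid positive libraries against 327 to 499 CPM in choroid inputs. No listed neuron marker was at 0 in any library. The part of neuronal RNA in the receptor results was not tested.

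In the brain, most receptor genes were lower in the positive fraction than in the input. The test called 26 of the 38 listed members lower, and 0 higher (0 also with DESeq2 and 0 at an unadjusted p under 0.05), where 18.3% of all genes tested were called lower and 21.2% higher. All 38 fold changes were below 0, with a median of -1.12 against -0.07 over all 12919 genes. For 27 of the 38 every positive library lay below every input, as it did for 26.2% of all genes. All 12 GABA-A subunits and all 4 AMPA subunits were called, as were 3 of 5 kainate, 3 of 6 NMDA, 4 of 7 metabotropic, 0 of 2 GABA-B and 0 of 2 delta genes. Brain input 960 stood apart from the other brain inputs: its log2 CPM correlated with theirs at 0.908 and 0.910 across genes, against 0.994 between inputs 421 and 953. Each input was also set against the mean of the other 2 inputs. Across 12817 genes this deviation correlated with exon length at a Spearman's rho of -0.568 for input 960. For inputs 421 and 953 it was 0.539 and 0.540, but input 960 is part of the mean they were set against. Without that library 37 of the 38 members were called lower (median -1.15), where 35.9% of all genes were. The exception was Grin3b, which lacks a call in both fits and shares 73 exon bases with Tmem259 on the opposite strand.

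**Figure D1:**
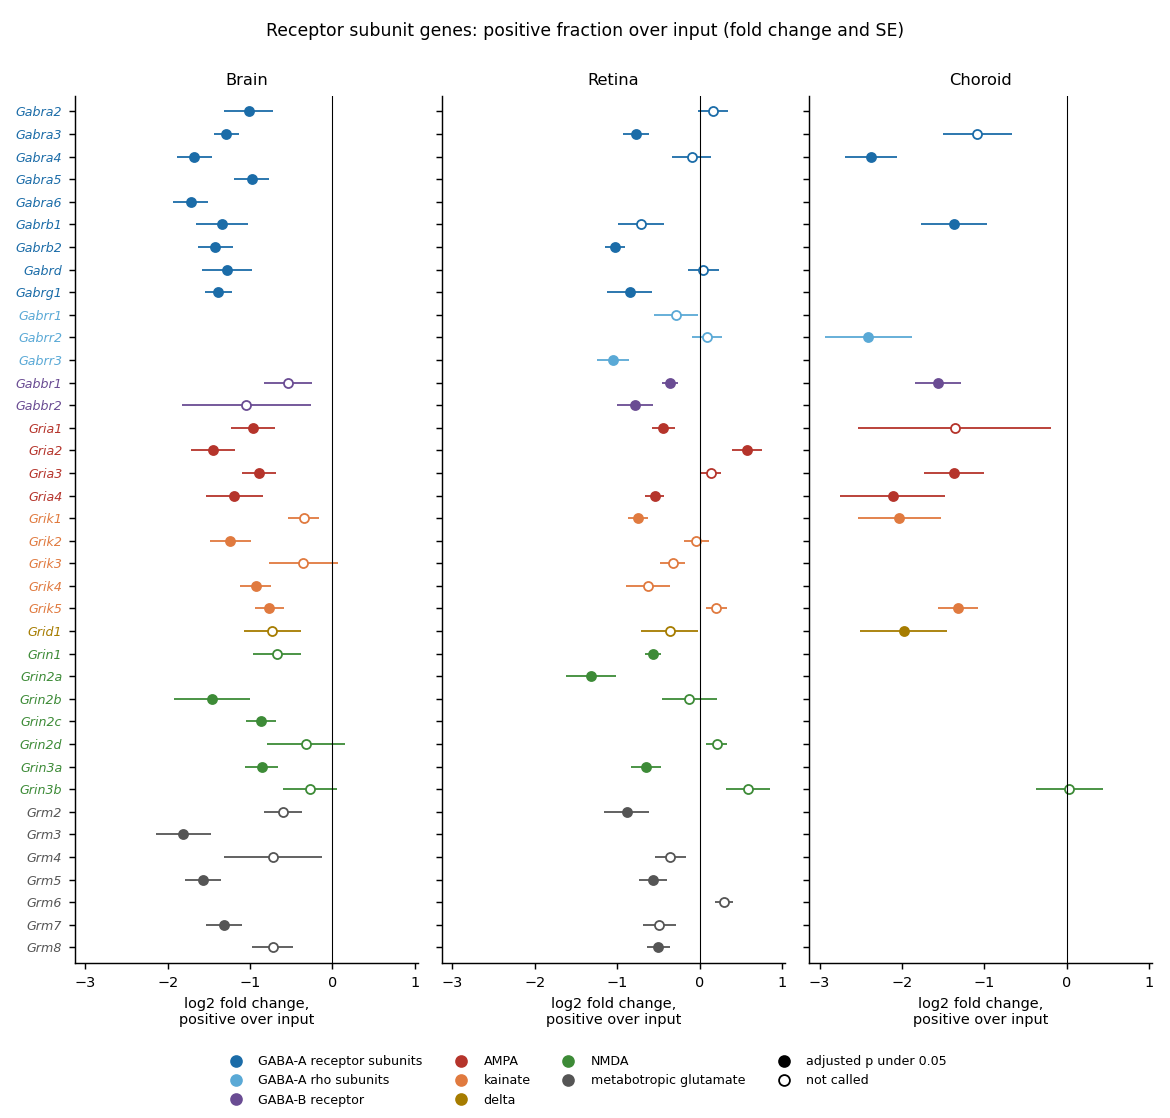
Log2 fold change of positive over input (x axis, points) with its standard error (bars) for 38 of the 43 subunit genes (y axis, coloured by class) in brain, retina and choroid, 3 libraries per fraction. Filled points have an adjusted p under 0.05, open points do not, and a row with no point is a gene outside that tissue's listing. All brain points lie left of 0, and Gria2 is the one filled point to the right of 0 in retina.

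GABA-A alpha subunits form the GABA site together with beta subunits. Gabra4, which pairs with the delta subunit in receptors outside the synapse, had 27.9, 21.1 and 35.8 CPM in the positive libraries, against 85.4, 91.4 and 94.3 CPM in the inputs. No positive library came near an input, and the fold change was -1.68 ± 0.21 (adjusted p = 0.00116). Gabra6, a subunit of cerebellar granule cells, had 25.4, 19.8 and 31.7 CPM in the positive libraries, against 95.7, 77 and 81 CPM in the inputs. It did not overlap either, with a fold change of -1.72 ± 0.21 (adjusted p = 0.000921). The summed granule cell markers, a list that includes Gabra6, had 405 to 509 CPM in the positive libraries and 868 to 1103 CPM in the inputs, and their part in this result was not tested. Smaller fold changes were measured for other alpha subunits, -1.29 for Gabra3, -1.02 for Gabra2 and -0.98 for Gabra5, the subunit rich in hippocampus.

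The beta subunits of the brain followed the same direction. Gabrb2 had 126, 92.1 and 149 CPM in the positive libraries, against 314, 310.0 and 359 CPM in the inputs, a fold change of -1.42 ± 0.21 (adjusted p = 0.0022). Gabrb1 had -1.34 on the same scale. Gabrg1 and the extrasynaptic Gabrd had fold changes of -1.38 and -1.28. The median over the 12 GABA-A genes was -1.31, and all 12 fold changes were below 0.

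**Figure D2:**
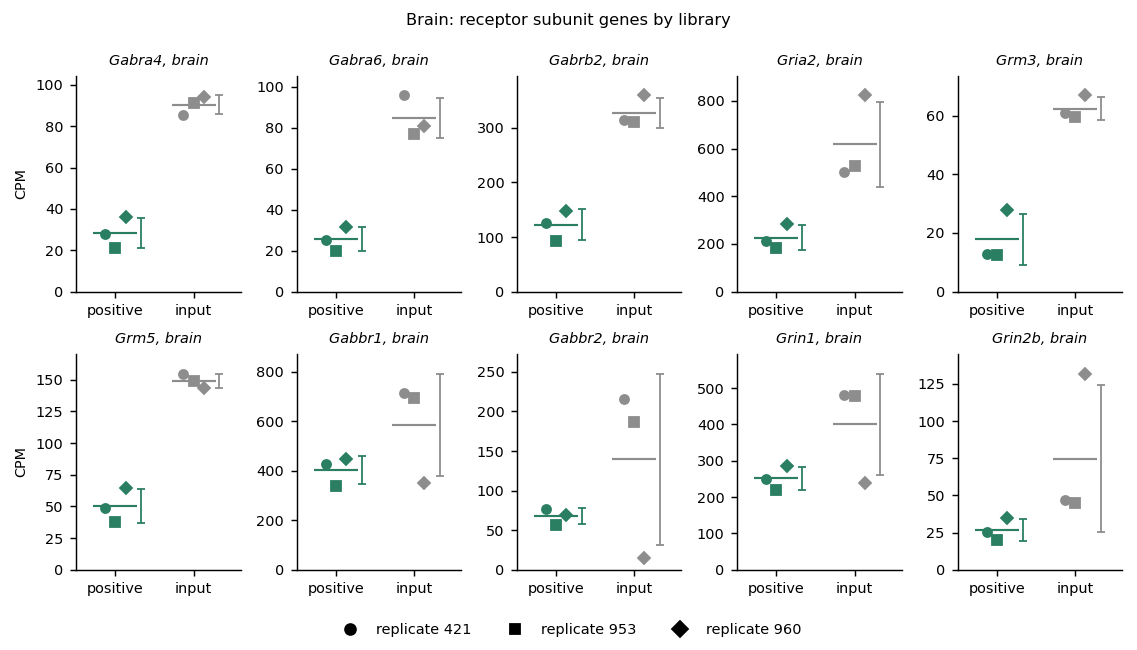
CPM (y axis, linear, from 0) of 10 receptor genes in each brain library, positive left and input right, with the mean (line) and SD over 3 libraries (bar at the side), circles for replicate 421, squares for 953 and diamonds for 960. For Gabra4, Gabra6, Gabrb2, Grm3 and Grm5 the fractions are far apart in every replicate, while for Gabbr1, Gabbr2 and Grin1 the diamond of input 960 falls at or below positive libraries.

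The GABA-B receptor is made of Gabbr1, which binds GABA, and Gabbr2, which couples to the G protein. Gabbr1 had the highest level per length of all members in the brain positive fraction, 61.2 ± 8.69 CPM per kb of exon, against 88.9 ± 31.2 in the input (SD, n = 3 each). By library it had 427, 339 and 447 CPM in the positive libraries, against 716, 695 and 349 CPM in the inputs. Input 960 lay within the range of the positive libraries, and the gene was not called, at -0.54 ± 0.29 (adjusted p = 0.186). Gabbr2 showed this even more, with 76.8, 56.8 and 69.7 CPM in the positive libraries, against 216, 187 and 15.4 CPM in the inputs. Its input 960 was below every positive library, and the fold change of -1.04 ± 0.78 (adjusted p = 0.327) was not called either. Without input 960 both were called lower, at -0.80 (adjusted p = 0.00116) and -1.57 (adjusted p = 6.94e-05).

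AMPA receptors carry most fast excitation, and their Gria2 subunit, through RNA editing, makes the channel nearly impermeable to calcium. In brain, Gria2 had 213, 182 and 283 CPM in the positive libraries, against 502, 526 and 823 CPM in the inputs. Input 960 was the highest library, both fractions stayed apart, and the fold change was -1.45 ± 0.27 (adjusted p = 0.00565). Gria1 had 213, 175 and 234 CPM in the positive libraries, against 496, 454 and 261 CPM in the inputs, so that here input 960 was the lowest input, close to the highest positive library. Its fold change was -0.96 ± 0.27 (adjusted p = 0.0272), and those of Gria3 and Gria4 were -0.89 and -1.19.

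Kainate receptors need Grik1, Grik2 or Grik3, to which the high-affinity subunits Grik4 and Grik5 add. Grik5 had the highest level per length of the 5 in brain, 33.7 ± 3.86 CPM per kb in the positive fraction against 57.3 ± 9.65 in the input (SD, n = 3 each). By library it had 124, 114 and 142 CPM in the positive libraries, against 194, 195 and 258 CPM in the inputs. The fractions did not overlap, and the fold change was -0.77 ± 0.18 (adjusted p = 0.0143). Grik2 and Grik4 were also called, at -1.24 and -0.93, while Grik1 at -0.35 ± 0.19 (adjusted p = 0.181) and Grik3 at -0.35 ± 0.42 (adjusted p = 0.538) were not. The delta receptor Grid1 had -0.73 without a call.

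NMDA receptors contain the obligatory glycine-binding subunit Grin1 and, in most cases, a glutamate-binding Grin2 subunit. Grin1 had 57.6 ± 7.44 CPM per kb in the positive fraction, against 91.6 ± 32 in the input (SD, n = 3 each), the highest level per length of all members in the brain input. By library it had 249, 221 and 286 CPM in the positive libraries, against 482, 479.7 and 239 CPM in the inputs. Input 960 fell among the positive libraries, and the fold change of -0.67 ± 0.29 (adjusted p = 0.107) was not called. Grin1 also shares 1307 exon bases with the antisense gene Grin1os, and neither labels nor headers state whether the counting used the strand. Grin2b had 25.6, 20.2 and 34.9 CPM in the positive libraries, against 47.1, 45.1 and 132 CPM in the inputs. Its input 960 was far above the other inputs, the opposite of Gabbr2, and its fold change of -1.47 ± 0.46 (adjusted p = 0.0424) became -0.77 (adjusted p = 0.0113) without that library. Grin2b has 24787 exon bases and Gabbr2 5750, so of these 2 the longer gene was raised in input 960, while the correlation across genes was negative. Input 960 was below the mean of the other 2 inputs for 26 of the 38 members (median log2 deviation -0.31). Brain positive libraries also varied: 953 was below the mean of the other 2 for 36 of the 38 (median -0.36), 421 for 15 and 960 for 5. The same counts over all genes were not computed. The part of exon length in these shifts was not tested. Grin2c, the NMDA subunit of cerebellar granule cells, and Grin3a had -0.87 and -0.86, both called. Grin2d (-0.32) and Grin3b (-0.27) were not.

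**Figure D3:**
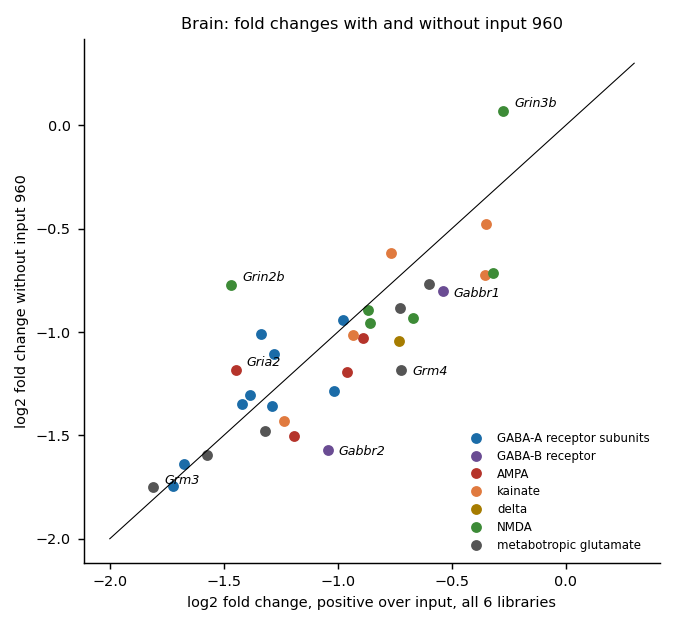
Log2 fold change in brain from all 6 libraries (x axis) against that without input 960 (y axis) for 33 of the 38 listed members, coloured by class, with the line of equal values. Gabbr2 and Grm4 lie well below the line, Grin2b and Gria2 above it, and Grin3b is the one point above 0 without that library.

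Metabotropic receptors of group I, such as Grm5, act through Gq, and those of group II (Grm2 and Grm3) and group III (Grm4, Grm6, Grm7 and Grm8) through Gi and Go proteins. Grm3, which is abundant in astrocytes, had the lowest fold change of the brain members. It had 12.8, 12.5 and 27.9 CPM in the positive libraries, against 60.8, 59.3 and 66.8 CPM in the inputs. Positive 960 was well above both other positive libraries but still under every input, and the fold change was -1.81 ± 0.33 (adjusted p = 0.00558). The summed markers of Müller glia and astrocytes had 4230 to 5511 CPM in the positive libraries against 6121 to 7041 CPM in the inputs (7 of 11 called lower, none at 0), and their part was not tested. Grm5 had 48.6, 37.4 and 64.3 CPM in the positive libraries, against 155, 149 and 144 CPM in the inputs. It did not overlap either, with a fold change of -1.57 ± 0.21 (adjusted p = 0.00164). Grm7 (-1.32) was called as well. Grm2 (-0.60), Grm4 (-0.72) and Grm8 (-0.73) were not.

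Of the 26 brain calls, 15 held when any single library was left out. Among those named above, Grin2b, Gria1, Gabra2 and Gria4 lost theirs without positive 421, 953 or 960, and all of these except Grin2b also without input 421 or 953. Gabrd, Gabrb1, Grik5 and Grin2c lost theirs without positive 421 or 953, Gria3 also without input 421 or 953, and Grin3a without positive 421. The adjusted p in these fits reached 0.159. With the replicate number as a block 22 members were called lower (12.9% of all genes), and Gabra2, Gria1, Gria3 and Gria4 were not.

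In the retina, 1 member was called higher in the positive fraction and 19 were called lower of the 39 listed, where 18% of all genes were called higher and 13.7% lower. The median fold change was -0.49 against -0.01 over all 12369 genes. Every positive library lay below every input for 25 of the 39 (25.3% of all genes did) and above for 4, Gria2, Grin3b, Grm6 and Grin2d (24.7% of all genes). Of the 26 members that reached the minimum in both fractions, 13 were called lower, where 14.3% of all such genes were. Of the 13 that reached it in the inputs alone, 6 were called lower, where 12.0% of all such genes were. These 6 included Gabrr3, Grm2, Gabrg1, Grin3a and Grin2a.

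Gria2 was the member called higher. It had 272, 234 and 157 CPM in the positive libraries, against 147, 141 and 157 CPM in the inputs. Positive 421 and 953 were well above the inputs, while positive 960 was level with input 960, and the fold change was 0.57 ± 0.18 (adjusted p = 0.0425). Gria4 had 60.2, 59.5 and 68.2 CPM in the positive libraries, against 84.7, 90.8 and 99.1 CPM in the inputs. Its fractions stayed apart in the other direction, and it was called lower at -0.55 ± 0.11 (adjusted p = 0.00729). Gria1 was also called lower, at -0.44 ± 0.14 (adjusted p = 0.0396), and Gria3 was not called, at 0.14 ± 0.12 (adjusted p = 0.403). The call of Gria2 was lost without positive 421, positive 953 or any 1 of the 3 inputs (adjusted p 0.0661 to 0.140), although the fold change stayed above 0 in every alternative run.

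Grm6, the receptor with which ON bipolar cells sense photoreceptor glutamate, had the highest level per length in the retina positive fraction, 44.3 ± 4.25 CPM per kb, against 36 ± 1.96 in the input (SD, n = 3 each). By library it had 219.8, 185 and 189 CPM in the positive libraries, against 162, 152 and 169.8 CPM in the inputs. Every positive library was above every input, but the fold change of 0.30 ± 0.11 (adjusted p = 0.0693) was not called. Grm6 shares 296 exon bases with the antisense gene Gm12660. Of 9 ON bipolar markers 2 were called higher and 1 lower (2 lower with the replicate block), with a median of -0.10, and their summed level was 1424 to 2001 CPM in the positive libraries against 1554 to 1680.1 CPM in the inputs. Their part in the level of Grm6 was not tested. The other metabotropic genes lay below 0, and Grm2 was the lowest of them. It had 6.08, 6.34 and 12 CPM in the positive libraries, against 12.9, 16.1 and 17.3 CPM in the inputs, a fold change of -0.88 ± 0.28 (adjusted p = 0.0386). Grm5 (-0.57) and Grm8 (-0.50) were called lower too, and Grm4 (-0.35) and Grm7 (-0.49) were not called.

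The rho subunits form GABA channels typical of retinal bipolar cells. Gabrr1 had 33.8 ± 15 CPM per kb in the positive fraction, against 41.6 ± 1.95 in the input (SD, n = 3 each), the highest level per length in that input. Gabrr2 followed there, with 41.6 ± 11.1 CPM per kb in the positive fraction, against 39.2 ± 2.06 in the input. Gabrr2 had 56.5, 86.9 and 98.1 CPM in the positive libraries, against 72, 79.9 and 75.2 CPM in the inputs, with overlapping fractions and a fold change of 0.09 ± 0.18 (adjusted p = 0.726). Gabrr1 had 45.2, 72.9 and 114 CPM in the positive libraries, against 93, 91.9 and 100.1 CPM in the inputs. Its positive libraries were spread widely on both sides of the inputs, and it was not called, at -0.29 ± 0.27 (adjusted p = 0.433). Gabrr3 had 5.63, 6.02 and 7.72 CPM in the positive libraries, against 12.7, 14.9 and 12.9 CPM in the inputs. All its positive libraries were below all inputs, and it was called lower at -1.05 ± 0.19 (adjusted p = 0.00479). Gabrr3 entered the table through the inputs alone.

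Of the 10 GABA-A subunits listed in retina, 5 were called lower. Gabrb2 had 27, 31.9 and 34.9 CPM in the positive libraries, against 61.3, 62.7 and 67.7 CPM in the inputs. The fractions were far apart, and the fold change of -1.03 ± 0.13 (adjusted p = 0.00049) was called in every alternative run. Gabrg1 (-0.85) and Gabra3 (-0.77) were also among the calls. Gabra4 (-0.10), Gabrd (0.05) and Gabra2 (0.16) lay near 0 with overlapping fractions, and Gabrb1 (-0.71) did not overlap but was not called. Both GABA-B genes were called lower, Gabbr1 at -0.36 ± 0.10 (adjusted p = 0.0238) and Gabbr2 at -0.78 ± 0.22 (adjusted p = 0.0264). The call of Gabbr1 was lost with the replicate block.

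Among kainate subunits, Grik1, known from OFF bipolar cells, had 61.7, 57.1 and 74.2 CPM in the positive libraries, against 104, 107 and 113 CPM in the inputs. The fractions did not overlap, and the fold change was -0.74 ± 0.12 (adjusted p = 0.00242). Grik5 had 144, 129.8 and 109.8 CPM in the positive libraries, against 112, 102 and 119 CPM in the inputs, so that the fractions overlapped, and it was not called at 0.21 ± 0.13 (adjusted p = 0.243). Grik2 (-0.04), Grik3 (-0.33) and Grik4 (-0.62) were not called. Of the NMDA genes, Grin1 was called lower at -0.56 ± 0.10 (adjusted p = 0.00381) and Grin3a at -0.65 ± 0.18 (adjusted p = 0.0256). Grin2a had the lowest fold change of all retina members, on low counts: 1.19, 2.38 and 2.16 CPM in the positive libraries, against 4.13, 4.39 and 5.95 CPM in the inputs, a fold change of -1.32 ± 0.30 (adjusted p = 0.0121). It entered the table through the inputs alone. Grin2b (-0.12), Grin2d (0.21) and Grin3b (0.59) were not called. The delta receptor Grid1 was not called, at -0.36.

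Of the 19 calls of lower members in retina, those of Gabra3, Gabrb2, Gabrr3, Grik1 and Grin1 held without any single library. The rest were lost without at least 1 library. Without input 960 this was so, among others, for Gria4, Grin2a, Grin3a, Grm2, Grm5, Grm8, Gabbr1, Gabbr2, Gabrg1 and Gria1. All of these but Gria4 and Grin2a also lost it without input 421, and Grin3a, Grm2, Grm8, Gabbr1, Gabbr2, Gabrg1 and Gria1 without input 953. Among positive libraries, leaving out 953 ended calls that included Gabbr1, Gabbr2, Gria1, Grm2 and Grm8, leaving out 421 those of Gabrg1 and Grm2, and leaving out 960 calls that included Gabrg1 and Grm5. The adjusted p in these fits reached 0.162. Without positive 960, 4 members were called higher and 18 lower, and the share of all genes called in that fit was not computed. Each retina library was also set against the mean of the other 2 of its fraction, across 12265 genes. Spearman's rho of this deviation with exon length was 0.224, -0.051 and -0.208 for positive 421, 953 and 960. For inputs 421, 953 and 960 it was -0.141, -0.181 and 0.297. The part of this in the retina results was not tested.

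**Figure D4:**
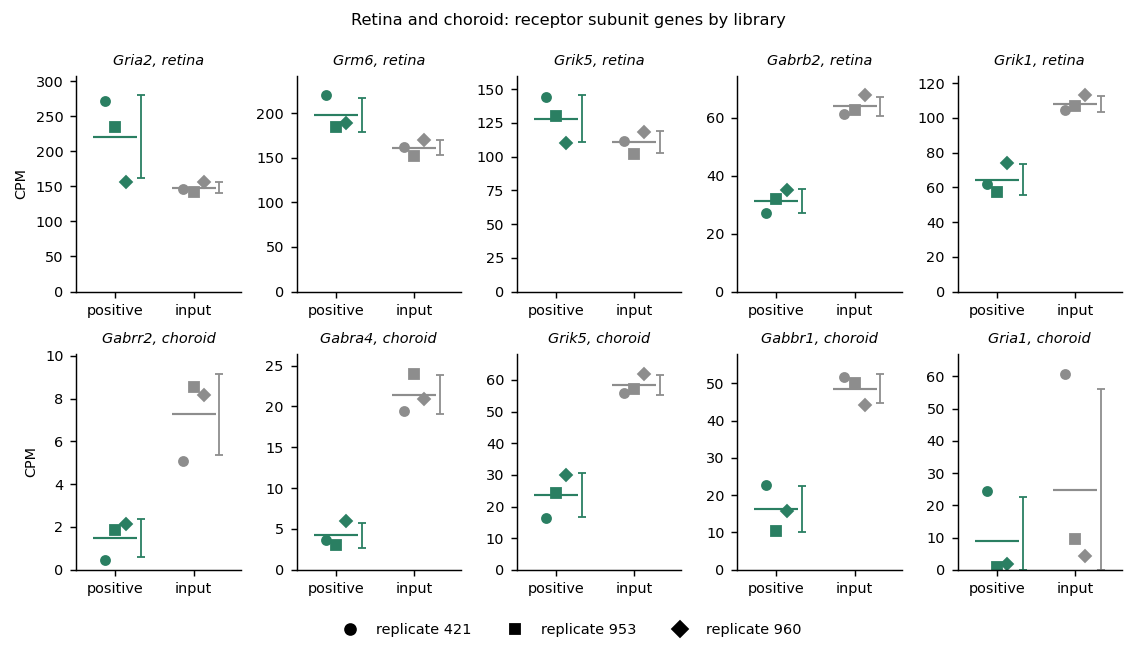
CPM (y axis, linear, from 0) of 5 receptor genes in each retina library (top) and 5 in each choroid library (bottom), positive left and input right, with the mean (line) and SD over 3 libraries (bar at the side, cut at 0 for Gria1), circles for replicate 421, squares for 953 and diamonds for 960. Gria2 and Grm6 lie higher in the retina positive libraries, Gabrb2 and Grik1 lower, and in choroid Gria1 is high in both libraries of replicate 421.

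In the choroid, the vascular layer behind the retina, 13 members were listed. The test called 10 lower and 0 higher (0 with DESeq2 and 0 at an unadjusted p under 0.05), where 20.9% of all genes were called lower and 21.1% higher. Their median fold change was -1.56 against -0.03 over all 11718 genes, and 11 of the 13 had every positive library below every input (28.4% of all genes did). Of the 11 members that reached the minimum in the inputs alone, 8 were called lower, where 32.7% of all such genes were. The 2 members that reached it in both fractions were called lower, where 14.8% of all such genes were. Of the 2 that reached the minimum in both fractions, Grik5, which had the highest level per length in the choroid positive fraction (6.27 ± 1.84 CPM per kb, against 15.5 ± 0.85 in the input), had 16.3, 24.4 and 30.1 CPM in the positive libraries, against 56, 57.1 and 62 CPM in the inputs. The fractions did not overlap, and the fold change was -1.32 ± 0.24 (adjusted p = 0.00323). Some choroid libraries deviated with exon length from the mean of the other 2 of their fraction, as in brain and less strongly in retina. Across 11653 genes Spearman's rho was 0.420 for positive 421 and -0.324 for positive 960, and 0.445 for input 421 and -0.518 for input 960. The part of this in the choroid results was not tested, and 10 members were called lower without number 421 and 11 without number 960, against 3 without number 953.

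The 11 members that entered through the choroid inputs alone had low counts in the positive libraries. Gabbr1 had 22.7, 10.5 and 15.7 CPM in the positive libraries, against 51.6, 50.0 and 44.1 CPM in the inputs, a fold change of -1.56 ± 0.28 (adjusted p = 0.00298). Gabra4 had 3.63, 3.09 and 5.93 CPM in the positive libraries, against 19.4, 24 and 20.9 CPM in the inputs, a fold change of -2.38 ± 0.31 (adjusted p = 0.000655). Both were lower in every positive library than in any input. Gabrr2 had 0.454, 1.85 and 2.12 CPM in the positive libraries, against 5.1, 8.56 and 8.15 CPM in the inputs, the lowest fold change at -2.41 ± 0.53 (adjusted p = 0.00736). Grik1 had 1.82, 3.4 and 6.78 CPM in the positive libraries, against 11.2, 12.3 and 22.6 CPM in the inputs, a fold change of -2.03 ± 0.50 (adjusted p = 0.0121). Both are genes of retinal bipolar cells by textbook knowledge. Of the listed markers, 3 of 4 for ON bipolar cells and 1 of 9 for rods and cones were called lower, where 20.9% of all genes were. All 9 rod and cone fold changes were below 0. With the replicate block all 9 and all 4 ON bipolar markers were called lower, where 29.1% of all genes were. The ON bipolar markers summed to 143 to 168 CPM in the positive libraries, against 485 to 639 CPM in the inputs, with none at 0, and their part was not tested. Gria4 had 2.5, 1.54 and 0 CPM in the positive libraries, against 9.15, 6.26 and 4.47 CPM in the inputs, with positive 960 at 0, and Grid1 had 2.95, 1.85 and 0.848 CPM in the positive libraries, against 12.7, 6.06 and 5.26 CPM in the inputs. The fitted fold changes were -2.11 ± 0.64 (adjusted p = 0.0281) for Gria4 and -1.98 ± 0.53 (adjusted p = 0.0177) for Grid1. Gria3 (-1.37) and Gabrb1 (-1.37) were also called, and Gabra3 (-1.09, adjusted p = 0.0675) and Grin3b (0.03) were not. Gria1 had 24.5, 0.926 and 1.7 CPM in the positive libraries, against 60.9, 9.61 and 4.21 CPM in the inputs. Both libraries of replicate 421 were far above the others, and the gene was not called, at -1.36 ± 1.17 (adjusted p = 0.375). Within each replicate number, whose 2 fractions came from 1 lysate, Gria1 was lower in the positive library than in the input. With the replicate block 12 of the 13 members were called lower, where 29.1% of all genes were. Gria1 (-1.69, adjusted p = 0.00175) and Gabra3 (-1.09, adjusted p = 0.0492) were then among them, and Grin3b was not. Under the alternatives run the fold change of Gria1 lay between -4.30 and 0.48. The calls of Gabrb1, Gria4, Grid1 and Gria3 were each lost without at least 1 single library: Gabrb1 without positive 421 or 953 or input 953 or 960, Gria4 without positive 953 or input 421 or 953, Grid1 without positive 953 or 960 or input 421, and Gria3 without input 953 (adjusted p up to 0.0824).

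Whether enrichment differed between tissues was tested with an interaction contrast: 1 tissue's log2 fold change minus that of another. Both tissues were fitted together for this, so a difference need not equal the gap between the separate fold changes. Retina minus brain covered 34 members: 6 were called higher and 0 lower (1 at an unadjusted p under 0.05, and 0 with DESeq2), where 5.03% of all genes were called higher and 9.72% lower. The largest difference was that of Gria2, 1.91 ± 0.36 (adjusted p = 0.00548), from 0.57 in retina and -1.45 in brain. Gabra4 followed with 1.46 ± 0.32 (adjusted p = 0.012), from -0.10 in retina and -1.68 in brain. By library in retina, Gabra4 had 5.63, 10.5 and 9.16 CPM in the positive libraries, against 9.71, 9.06 and 8.3 CPM in the inputs. Both genes kept the call without any single library. Grik2 had 1.08 ± 0.29 (adjusted p = 0.0275), Gria3 0.91 ± 0.24 (adjusted p = 0.0247), Grm5 0.89 ± 0.28 (adjusted p = 0.0498) and Grik5 0.86 ± 0.24 (adjusted p = 0.0313). In retina, Grik2 had 21, 20.0 and 17.7 CPM in the positive libraries, against 21.6, 17.7 and 20.8 CPM in the inputs. In brain, Grik2 had 19.9, 15.4 and 23.1 CPM in the positive libraries, against 51.2, 54.1 and 32.1 CPM in the inputs. Its fractions overlapped in retina and not in brain. In retina, Gria3 had 47, 41.9 and 53.1 CPM in the positive libraries, against 41, 43 and 45.1 CPM in the inputs. In brain, Gria3 had 81.6, 75.1 and 108 CPM in the positive libraries, against 179, 180.1 and 129 CPM in the inputs, with the same pattern of overlap. For Gria2, Gria3 and Grik5 the fold change lay above 0 in retina and below 0 in brain, although Gria3 and Grik5 were not called in retina. Gria2 and Gabra4 held in all alternatives but those without number 421 or 953 in every fraction, where 0 of the 34 were called. The calls of Grik2, Gria3, Grm5 and Grik5 were each lost without brain positive 421 or 953 or any 1 of the retina inputs. Those of Grik2, Grm5 and Grik5 were also lost without retina positive 421 or 953, and those of Grik2, Gria3 and Grm5 without brain input 421 or 953 (adjusted p up to 0.129). The median difference over the 34 was 0.41 against -0.03 over 11618 genes, and 30 lay above 0. Without brain input 960, 21 were called higher. The share of all genes called in that fit was not computed. In brain enrichment without input 960, 35.9% of all genes were called lower, against 18.3% with all libraries. With the replicate block 4 members were called higher in retina minus brain, and the calls of Grik2, Gria3 and Grm5 were lost.

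The other differences shared libraries with this one and with each other. Choroid minus retina covered 13 members, of which 6 were called lower and 0 higher (0 with DESeq2 and 0 at an unadjusted p under 0.05), where 18.4% of all genes were called lower and 13.8% higher. Of these 13, 11 had entered the choroid listing through the inputs alone, among them Gabrr2, Gabra4, Gabbr1 and Gria3. In choroid enrichment, 32.7% of all genes that entered so were called lower, against 14.8% of those that met the minimum in both fractions. No such shares were computed for this difference. Gabrr2 had -2.45 ± 0.52 (adjusted p = 0.00362), from -2.41 in choroid and 0.09 in retina. Gabra4 had -2.22 ± 0.38 (adjusted p = 0.00101) and Gabbr1 -1.12 ± 0.27 (adjusted p = 0.008). Among the glutamate receptors Grik5 had -1.46 ± 0.26 (adjusted p = 0.00127) and Gria3 -1.41 ± 0.36 (adjusted p = 0.0107). All 6 kept the call without any single library. Without number 953 in every fraction 1 was called, and with the replicate block 10 were. Shares of all genes called in these fits were not computed. Choroid minus brain covered 12 members and called 0 in either direction (2 lower at an unadjusted p under 0.05, and 1 lower, Grik1, with DESeq2), where 11.2% of all genes were called lower and 9.48% higher. Grik1 was the furthest from 0 there, at -1.51 ± 0.54 (adjusted p = 0.067).

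The inputs of retina and brain were also compared, since a fold change depends on what the whole tissue holds. Of 34 members 27 were called lower in retina input than in brain input and 2 higher, where 28.8% of all genes were called lower and 27.4% higher. The numbers 421, 953 and 960 recur in both tissues, and this test did not pair them. With the number as a block 24 were called lower and 2 higher, and the share of all genes called in that fit was not computed. CPM in this comparison was scaled over the 6 inputs. Grik1 had 111, 114 and 120.3 CPM in retina inputs, against 18.3, 16.6 and 13.6 CPM in brain inputs, a log2 ratio of 2.82 ± 0.15 (adjusted p = 3.78e-05). Grm8, a group III receptor, had 42, 44.8 and 43.9 CPM in retina inputs, against 16.9, 15.6 and 11.4 CPM in brain inputs, a log2 ratio of 1.56 ± 0.17 (adjusted p = 0.000551). Both were higher in every retina input than in any brain input. At the other end, Grin2b had 6.35, 6.17 and 10.7 CPM in retina inputs, against 49.4, 47.7 and 148 CPM in brain inputs, a log2 ratio of -3.39 ± 0.55 (adjusted p = 0.00278). Gabra4 had 10.3, 9.65 and 8.84 CPM in retina inputs, against 89.7, 96.8 and 105 CPM in brain inputs, a log2 ratio of -3.34 ± 0.13 (adjusted p = 1.98e-05). Gria2 had 156, 150.4 and 167 CPM in retina inputs, against 527, 557 and 921 CPM in brain inputs, a log2 ratio of -2.08 ± 0.24 (adjusted p = 0.000672). Each was lower in every retina input than in any brain input. All 10 shared GABA-A subunits were lower in retina input. Gabbr2, Gria4, Grin2d and Grin3b were among those not called, and for each of these the groups overlapped. The calls of Gabra2 and Grid1 were lost without any 1 retina input or without brain input 421 or 953, and that of Grm4 without retina input 421 or 960 (adjusted p up to 0.127).

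Shares within a receptor family set the genes beside each other per length of exon. In retina, Gria2 made up 50.6, 47 and 33.1% in the positive libraries, against 30.5, 29 and 29.1% in the inputs, of the 4 AMPA genes. The fractions did not overlap, although positive 960 stood close to the inputs. Grik5 made up 67.3, 66.2 and 57.5% in the positive libraries, against 50.2, 47.9 and 49.7% in the inputs, of the 5 kainate genes. Grik1 made up 25.6, 25.9 and 34.6% in the positive libraries, against 41.7, 44.5 and 42.1% in the inputs. Grm6 made up 81.2, 78.2 and 76.2% in the positive libraries, against 68.7, 66 and 69.7% in the inputs, of the 4 listed group III genes. In each of these 3 families 1 subunit took a larger share of the positive fraction than of the input in every library. In brain, Grm2 made up 58.7, 52.4 and 42.2% in the positive libraries, against 34.2, 32.3 and 22.5% in the inputs, of the group II genes, the rest being Grm3. The brain AMPA shares overlapped between fractions for Gria1, Gria2 and Gria4, and input 960 held 49.4% Gria2, against 24.6% and 26.5% in inputs 421 and 953. These shares describe the libraries and were not tested.

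**Figure D5:**
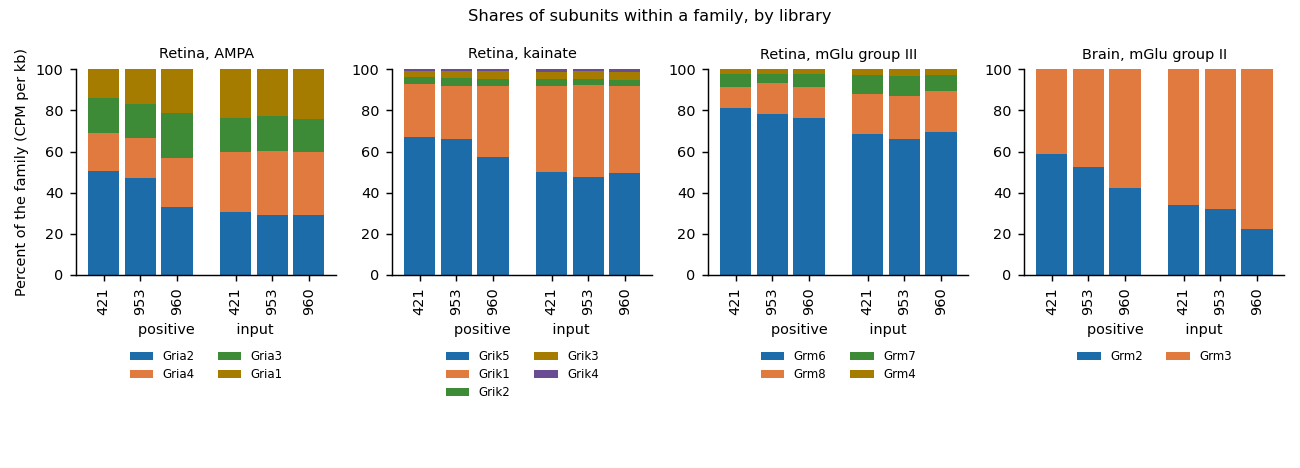
Share of each gene in the summed CPM per kb of its family (y axis, percent) in each library (x axis, replicate number, positive left and input right) for retina AMPA, kainate and group III metabotropic genes and brain group II genes. The lowest segment, Gria2, Grik5, Grm6 and Grm2 in turn, is taller in every positive library than in any input.

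The summed CPM of the members was set beside that of the neuron markers in the same library. In brain it came to 41.6, 40.1 and 41.8% of the neuron marker sum in the positive libraries, against 56.2, 54.0 and 38.2% in the inputs. Apart from input 960 the share was lower in the positive libraries. In retina it came to 50.2, 43.3 and 35.5% in the positive libraries, against 33.5, 34.0 and 35.7% in the inputs, and the fractions overlapped. In choroid it came to 50.0, 21.1 and 29.7% in the positive libraries, against 120.1, 72.5 and 74.3% in the inputs, with every positive library below every input. Of the 13 members in that sum, 11 entered the listing through the choroid inputs alone. The 11 listed neuron markers went both ways in choroid, with 2 called higher and 7 lower with the replicate block. These shares were not tested.

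Other genes of GABA and glutamate synapses were read from 7 lists of 105 genes. In brain 42 of 97 listed were called lower and 4 higher (median -0.75), in retina 41 of 99 and 9 (-0.36), and in choroid 27 of 58 and 6 (-1.04). Over all genes tested 18.3% were called lower and 21.2% higher in brain, 13.7% and 18% in retina, and 20.9% and 21.1% in choroid. Without brain input 960 the brain count was 79 lower and 9 higher (median -0.92), where 35.9% of all genes were called lower. The genes that were higher included partners of the GABA-B receptor. Kctd12, an auxiliary subunit that speeds desensitization of the receptor, had 331 CPM in the positive fraction and 129 CPM in the input of brain, with a fold change of 1.35 ± 0.20 (adjusted p = 0.00251). In retina its fold change was 2.67 ± 0.14 (adjusted p = 3.22e-06) and in choroid 1.54 ± 0.24 (adjusted p = 0.00155). The related Kctd12b had 2.83 ± 0.31 (adjusted p = 0.000637) in brain, 2.80 ± 0.52 (adjusted p = 0.00476) in retina and 2.24 ± 0.32 (adjusted p = 0.000969) in choroid. Kctd8, of the same family, was called lower in brain at -1.36 ± 0.16 (adjusted p = 0.000853), and Kctd16 in retina at -0.79 ± 0.25 (adjusted p = 0.0439). The genes for the receptor itself, Gabbr1 and Gabbr2, were called higher in none of the 3 tissues. The postsynaptic scaffold Shank3 was higher in retina at 0.74 ± 0.17 (adjusted p = 0.0117) and in choroid at 2.12 ± 0.49 (adjusted p = 0.00955), and not called in brain at -0.22 ± 0.42 (adjusted p = 0.708).

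In the remaining lists most calls were lower. Of 26 genes listed as auxiliary subunits or partners of glutamate receptors in brain, 15 were called lower and all 26 fold changes were below 0. Among them were Olfm3 at -1.67 ± 0.17 (adjusted p = 0.000477), C1ql3 at -1.74 ± 0.24 (adjusted p = 0.0018) and the kainate receptor partner Neto1 at -1.37 ± 0.22 (adjusted p = 0.00321). Without input 960, 24 of the 26 were called lower. In retina 12 of 25 were lower, with Olfm1 at -0.95 ± 0.12 (adjusted p = 0.000485), and 2 higher, among them Prrt2 at 0.62 ± 0.14 (adjusted p = 0.0125). Of the postsynaptic density genes 11 of 25 were lower in brain, with Homer1 at -1.45 ± 0.15 (adjusted p = 0.000487), and 9 of 25 in retina, with Homer1 at -0.82 ± 0.14 (adjusted p = 0.00264). The brain count was 23 of 25 without input 960 and 7 of 25 with the replicate block. For GABA synthesis, release and uptake, 3 of 8 were lower in brain, 6 of 8 in retina and 5 of 6 in choroid. The brain count was 8 of 8 without input 960 (median -1.18) and 1 of 8 with the replicate block. Uptake of glutamate by astrocytes and Müller glia, through Slc1a2 and Slc1a3, was represented by lower levels in brain, -1.05 ± 0.28 (adjusted p = 0.0234) and -1.28 ± 0.21 (adjusted p = 0.00394), and in retina, -0.84 ± 0.11 (adjusted p = 0.00086) and -0.83 ± 0.12 (adjusted p = 0.000956). The exporter Slc12a5 (KCC2), which keeps neuronal chloride low, was lower in brain at -0.91 ± 0.24 (adjusted p = 0.0248) and in retina at -0.40 ± 0.12 (adjusted p = 0.0377).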

How the data were processed

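RNA of positive and input fractions from brain, retina and choroid was sequenced in 18 libraries, 3 per group. The raw columns deposited by the authors hold expected counts per gene, per the file headers and the values: 90.2% of the brain, 72.0% of the choroid and 91.5% of the retina values were not whole within 0.001. Normalized columns in the deposited tables are on a log2 scale, each library divided by a factor and centred on the inputs of its tissue, and were not used. The submitters' processing notes name mm10 and DESeq. Which aligner, counter and strand setting they used was not given in the sources used here. The labels name a directional library kit. Per the file headers, genes were kept where all libraries of at least 1 fraction had at least 50 counts.

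Expected counts were rounded and tested per tissue with edgeR 4.0.16 (R 4.3.3, limma 3.58.1; TMM scaling, quasi-likelihood F test, Benjamini-Hochberg over all genes, adjusted p under 0.05). Differences between tissues were interaction contrasts over both tissues. The procedure was tested on simulated counts. Alternatives were DESeq2 1.42.0, other scalings, a mean of at least 5 CPM, 1 fit of all 18 libraries, a replicate block, and leaving out single libraries or a replicate number. Levels per length used GENCODE M21 exons. Figures and summaries used Python 3.11.15, pandas 2.3.3 and matplotlib 3.10.9. Total counts ran from 2649095 to 32064355 per library, so low genes in the choroid positive fraction are the least precise.

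Positive and input libraries of a number came from the same lysate, which pairs them; their deviations correlated at 0.632, 0.268 and 0.527 in choroid, 0.087, 0.066 and 0.008 in retina and 0.189, 0.034 and 0.089 in brain. The members and lists were chosen with earlier results of these data known. Values by library are given for up to 6 called members at each end per tissue, the 3 highest per length in each fraction and up to 4 called members at each end of a tissue difference. Further members shown by library were chosen after their values were seen. Some members and list genes are not reported here; counts and medians include them.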

Additional observations from a re-analysis of the deposited data

Results flagged for a closer look

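In 11 of the cases reported by name the enrichment of a member differed between tissues by a test of the difference itself (edgeR's quasi-likelihood test, adjusted p under 0.05 over all genes). Retina minus brain, the log2 ratio was higher in retina for Gria2 by 1.91, for Gabra4 by 1.46, for Grik2 by 1.08, for Gria3 by 0.91, for Grm5 by 0.89 and for Grik5 by 0.86. Choroid minus retina, the difference was -2.45 for Gabrr2, -2.22 for Gabra4, -1.46 for Grik5, -1.41 for Gria3 and -1.12 for Gabbr1. Both sets use the retina libraries, so they are not independent. Gabrr2, Gabra4, Gria3 and Gabbr1 entered the choroid table through the inputs alone.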

How the results depend on the processing

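No fold change of a called member changed sign under any alternative run. Shares of all genes called were computed for brain without input 960 and for the replicate block within each tissue. They were not computed for the fits with other libraries left out, other scalings or DESeq2. Counts of members called moved as follows, and the cause was not tested. In brain, members called lower ranged from 8 to 37 when libraries were left out (26 with all), the highest without input 960 and the lowest without number 953 in every fraction. In retina they ranged from 1 to 18 (19 with all), the lowest without number 953 in every fraction, and those called higher from 0 to 4 (1 with all). In choroid the range was 3 to 11 (10 with all). Retina minus brain, members called higher ranged from 0 to 21 (6 with all) and those called lower from 0 to 1. The same count of higher members was 10 with RLE scaling and 12 with DESeq2. Choroid minus brain, the count of lower members (0) was 2 with scaling by library size, 1 with DESeq2, 1 with the replicate block and up to 1 with libraries left out. Choroid minus retina it was 10 with the replicate block and 1 to 7 with libraries left out (6 with all). Over the inputs, 17 to 30 were lower in retina (27 with all). DESeq2 called 2 members higher in retina enrichment. The fit of all 18 libraries could cover only the 12 members listed in every table: it called 8 lower in brain, 2 lower and 0 higher in retina, 1 lower for choroid minus brain, and 10 lower and 1 higher for retina over brain input. With the replicate block, brain kept 22 lower members of 26, retina had 19 and choroid 12. Leaving out a number leaves 2 pairs, and the low choroid counts limit what can be seen there.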
